A study of Mus musculus with 12 samples.

Results

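The 39 genes described here encode solute carriers of the families Slc1, Slc3, Slc6, Slc7, Slc36, Slc38 and Slc43, which hold most of the plasma membrane and lysosomal carriers of amino acids in mammals. They were taken by gene symbol from a count table of 28293 mouse genes: 52 symbols had the form of these families, and 39 of them had at least 30 counts over all libraries. Of the 39, 9 stand apart as carriers widely described as targets of the transcription factor ATF4 (Slc1a4, Slc1a5, Slc3a2, Slc6a9, Slc7a1, Slc7a3, Slc7a5, Slc7a11 and Slc38a2), and the remaining 30 are the comparison. Not every family member carries an amino acid: Slc6a8 takes up creatine, Slc6a6 takes up taurine, Slc6a4 takes up serotonin, and Slc43a3 carries nucleobases.

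The cells were osteoclast precursors grown from bone marrow of wild-type male C57BL/6J mice aged 6 months, that is, marrow macrophages kept for 3 days in M-CSF (10 ng/ml) and then induced with RANKL, the cytokine that drives osteoclast formation. In the RANKL group 6 cultures received 25 ng/ml RANKL for 24 h, and in the RANKL+Dex group 6 cultures received the same RANKL with 10 nM dexamethasone, a synthetic glucocorticoid, which the labels call a model of the GIONFH environment. The protocols do not say whether the 24 h followed an earlier day of RANKL. M-CSF belongs to the induction medium that the growth protocol describes for all cells. Batches 1 to 6 each gave 1 library to each group. Totals ran from 16820193 to 28523595 counts per library, with 20252 to 21776 genes detected. The 12 osteoclast lineage markers checked were all measured and made up 5.07% to 5.34% of counts in RANKL and 5.15% to 5.51% in RANKL+Dex, with 5 higher (Calcr, Ctsk, Acp5, Nfatc1 and Oscar) and 1 lower (Itgb3). Of the 6 macrophage markers, at 0.349% to 0.409% of counts in RANKL and 0.356% to 0.420% in RANKL+Dex, 1 was higher (Mertk) and 1 lower (Itgam). Neutrophil markers made up 0.00234% to 0.00367% of counts in RANKL and 0.000639% to 0.000996% in RANKL+Dex, with 5 of 5 tested markers lower. Of the endothelial markers 2 of 3 tested were lower and of the stromal ones 1 of 4, and the stromal share was at most 0.00235%. B cell, T or NK cell, erythroid and mast cell markers made up at most 0.000456% of counts in any library. Cd3e, Cd3g, Ms4a1 and Pax5 had no entry among the 28293 genes, so nothing can be read from them. Of the same lists, Trac (800 counts over all libraries) and Ighm (576) were tested and did not pass. Cd79a (62) and Cd79b (32) were scarce and not tested. The part of these marker differences in the results below was not tested.

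Cells take up amino acids through exchangers, sodium- or proton-coupled carriers and facilitated carriers, and supply decides whether the kinase complex mTORC1 is active on lysosomes. When amino acids run short or the endoplasmic reticulum is stressed, phosphorylation of eIF2α favours translation of ATF4, which binds composite ATF4-C/EBP elements and raises genes for amino acid import and synthesis. Osteoclast precursors use imported amino acids for growth and fusion, cystine import feeds glutathione synthesis, and glucocorticoids alter amino acid handling in many tissues. The libraries measure mRNA, not transport.

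With dexamethasone, carriers of glycine (Slc6a9) and neutral amino acids (Slc6a19) were higher. LAT2 (Slc7a8), PAT2 (Slc36a2), the taurine carrier (Slc6a6), Slc6a17 and Slc43a3 were lower. The calls of Slc6a9 and Slc6a6 ended in 1 and 7 of 24 alternative settings, and Slc6a19 and Slc36a2 were scarce. Of the 9 ATF4-linked carriers 1 was called higher (11.1%), near the 7.98% of all tested genes. Of 26 other genes of the ATF4 axis 11 were called higher (42.3%), and the difference from the carriers was not tested. Of the 39 genes 34 passed the filter on low counts and were tested. In all, 3 were higher in RANKL+Dex (Slc6a9, Slc6a19 and Slc7a14), 6 were lower (among them Slc6a6, Slc6a17, Slc7a8, Slc36a2 and Slc43a3) and 25 did not pass, at an adjusted p under 0.05 by the edgeR quasi-likelihood test over all genes. The shares were 8.82% higher and 17.6% lower, beside 7.98% and 7.55% of the 13775 tested genes. The higher share lay near this background. Of the tested members 4 were higher in all 6 batches and 8 lower, beside 10.6% and 11.3% of all tested genes. The groups did not overlap for 1 higher and 2 lower members, beside 3.84% and 3.17% of all tested genes. Among the 9 ATF4-linked carriers 1 was higher and 0 were lower, with a median log2 change of 0.09 and a range from −0.30 to 0.61. Among the 25 other tested members 2 were higher and 6 were lower, with a median of 0.01 and a range from −1.54 to 1.07. The median over all tested genes was 0.00. In bulk RNA fewer cells of a type and less RNA per cell cannot be told apart. With batch as a block 2 ATF4-linked carriers were called higher, beside 10.6% of all tested genes. The block also called 1 lower (Slc7a11), beside 11.1% of all tested genes. In DESeq2 the count called higher was 2 (8.57% of genes higher, 7.57% lower). Without RANKL replicate 5 the count called higher was 3, where 1946 of 13745 tested genes were called in either direction. Without RANKL+Dex replicate 6 the count was 2 (1840 of 13993 genes called). It was 0 without batch 1 (2278 of 13693) and 3 without batch 5 (1810 of 13790).

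**Figure D1:**
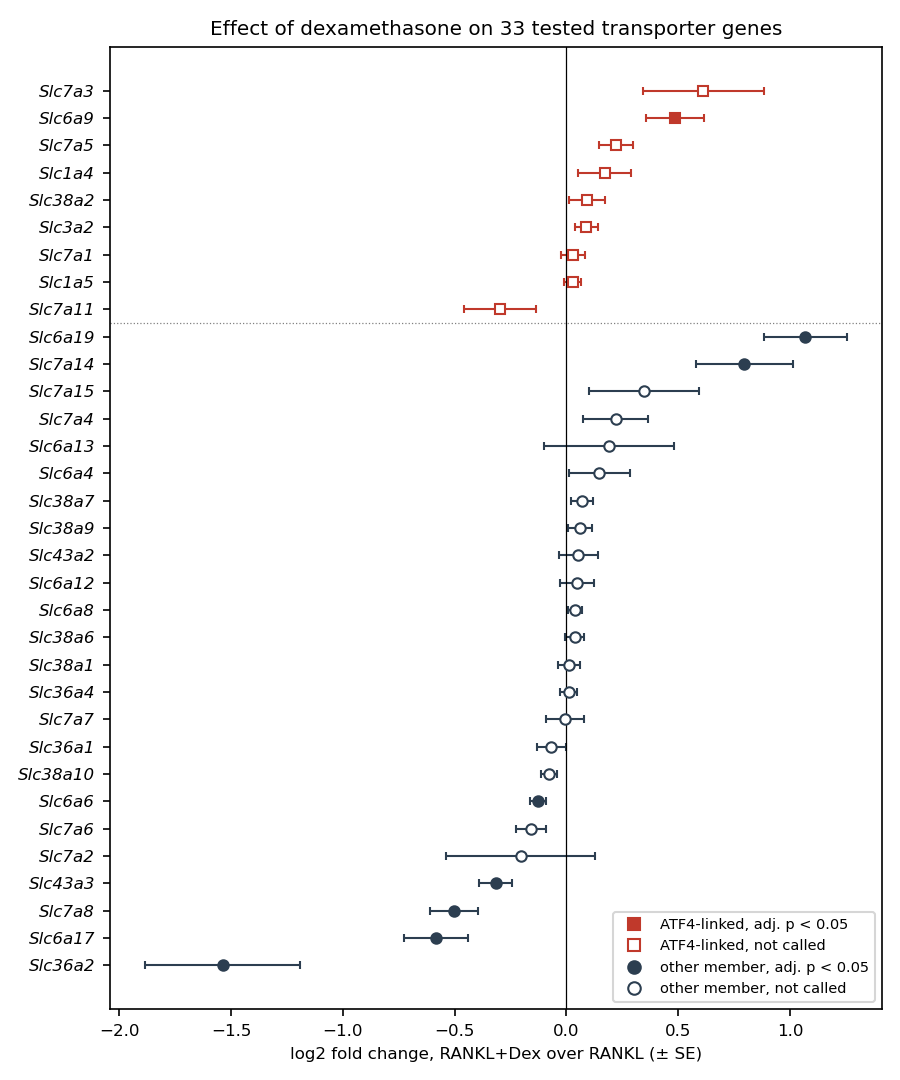
Log2 fold changes of 33 of the 34 tested genes, RANKL+Dex over RANKL, with SE bars; squares are ATF4-linked carriers, circles other members, and filled symbols passed an adjusted p of 0.05. The 9 ATF4-linked carriers lie between −0.30 (Slc7a11) and 0.61 (Slc7a3) with 1 filled symbol, whereas the others spread from −1.54 (Slc36a2) to 1.07 (Slc6a19).

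Levels differed widely between the genes. They are given as CPM, each count relative to the TMM-scaled total of its library. Per kilobase of exon, the mean level in RANKL was highest for Slc6a8 (creatine carrier, 176 CPM per kb), Slc1a5 (ASCT2, an exchanger of glutamine and other neutral amino acids, 151 CPM per kb) and Slc6a6 (taurine carrier, 119 CPM per kb). Slc3a2, the heavy chain CD98 that escorts several light chains to the membrane, followed at 71.4 CPM per kb. Slc38a10, Slc43a2, Slc38a2 and Slc7a8 followed between 29.7 and 20.3 CPM per kb. At the other end, Slc1a2 and Slc1a7, members of the glutamate carrier branch of Slc1, lay at 0.0209 and 0.0298 CPM per kb. All 39 genes together took 0.460% to 0.480% of counts in RANKL and 0.448% to 0.477% in RANKL+Dex. The ATF4-linked carriers made up 30.9% to 32.4% of these counts in RANKL and 32.5% to 33.3% in RANKL+Dex. The ranges of this share did not overlap, but came close. The share also depends on the abundant other members, among which Slc6a6 was called lower and Slc6a8 did not pass. Mean levels in RANKL and RANKL+Dex were 1007 and 922 CPM for Slc6a6, and 919 and 944 CPM for Slc6a8.

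**Figure D2:**
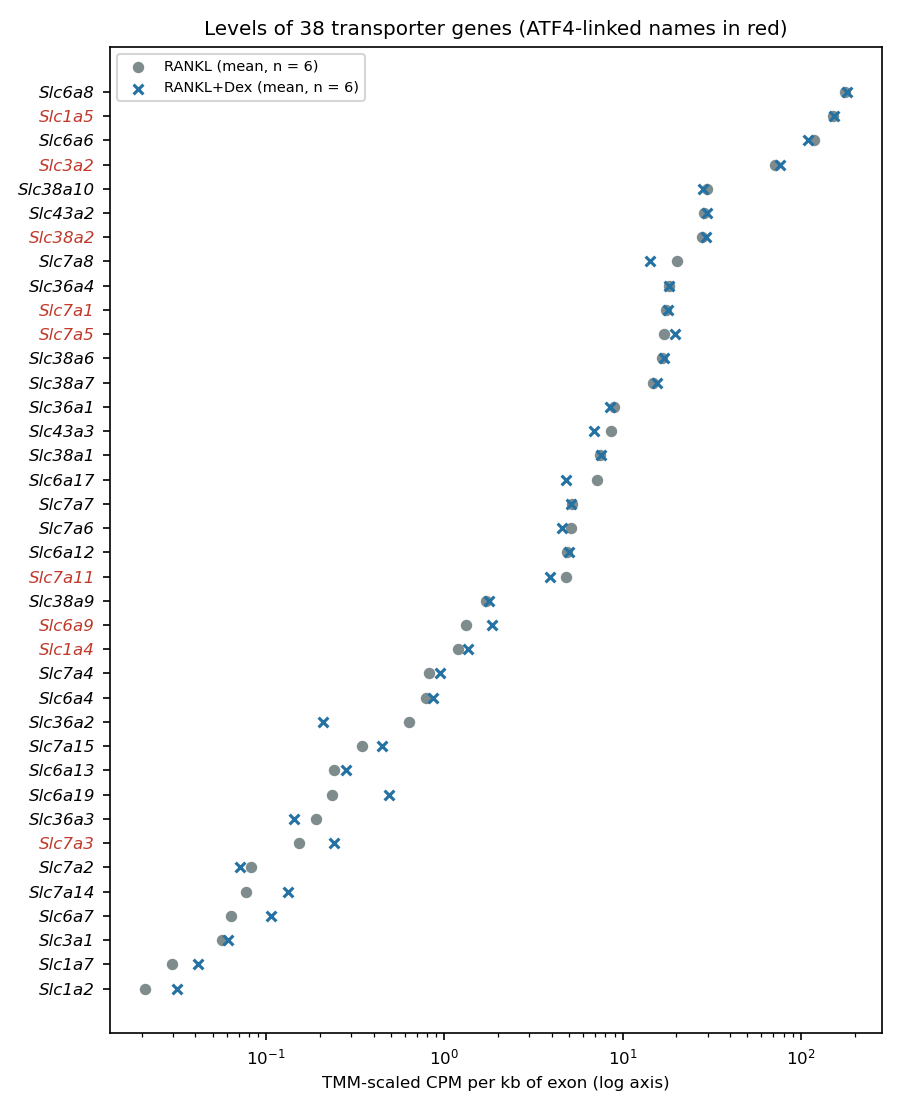
Mean level of 38 of the 39 genes in RANKL (dots) and RANKL+Dex (crosses), as TMM-scaled CPM per kb of exon on a log axis, with ATF4-linked names in red. Slc6a8 (176 CPM per kb in RANKL) heads the order and Slc1a2 (0.0209) ends it, and for most genes the marks of the groups lie on top of each other.

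Slc6a9 was the ATF4-linked carrier that rose. It encodes GlyT1, a sodium- and chloride-coupled glycine carrier, and lies on chromosome 4, plus strand, at 117691703 to 117732395 in GRCm39 (ENSMUSG00000028542). In RANKL its lowest, median and highest levels were 5.83, 6.78 and 7.67 CPM, and in RANKL+Dex they were 6.86, 9.09 and 12.3 CPM. The RANKL libraries lay close together and the RANKL+Dex libraries were spread out, with a small overlap between the groups. The value was higher with dexamethasone in 6 of 6 batches, as it was for 10.6% of all tested genes. It rose (mean 6.77 ± 0.620 CPM without and 9.51 ± 2.15 CPM with dexamethasone, SD, n = 6; log2 fold change 0.49 ± 0.13 SE, adjusted p by edgeR 0.0170). Batches 1 and 4 held the highest RANKL+Dex values, and without batch 1 the call ended (log2 fold change 0.38, adjusted p by edgeR 0.0604). B4galt2 overlaps Slc6a9 on the opposite strand, and the kit is not stated to mark strand. Reads of the overlap therefore cannot be told apart, and B4galt2 itself had a log2 change of 0.12 ± 0.08 (adjusted p by edgeR 0.379).

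Slc7a5 and its partner Slc3a2 form a system L exchanger (LAT1 with CD98), which brings leucine and other large neutral amino acids into growing cells. Slc7a5 (chromosome 8 from 122607889 to 122634433, minus strand, GRCm39) had lowest, median and highest levels of 48.1, 64.9 and 71.6 CPM in RANKL and of 64.8, 73.0 and 79.9 CPM in RANKL+Dex. It was higher with dexamethasone in 6 of 6 batches, but the groups overlapped because RANKL replicates 3, 4 and 5 lay above the lowest RANKL+Dex library, while RANKL replicate 1 was the lowest of all. The log2 fold change was 0.22 ± 0.08 (adjusted p by edgeR 0.0554), just outside the threshold. Slc7a5 passed with batch as a block (adjusted p by edgeR 0.0195), in DESeq2 (adjusted p = 0.0368), without RANKL replicate 5 (adjusted p by edgeR 0.0240), without RANKL+Dex replicate 6 (0.0374) and without batch 5 (0.0339). Slc3a2 ran from 230.0 to 278 CPM in RANKL (median 253) and from 246 to 297 CPM in RANKL+Dex (median 264), with most of the ranges shared. Its log2 fold change was 0.09 ± 0.05 (95% interval −0.02 to 0.19, adjusted p by edgeR 0.256).

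Slc7a11, the cystine-glutamate exchanger xCT and a standard ATF4 target, was the ATF4-linked carrier with a negative fold change. In GRCm39 it lies on chromosome 3, minus strand, at 49846975 to 50398063 (ENSMUSG00000027737). Its lowest, median and highest levels were 41.9, 67.7 and 89.7 CPM in RANKL and 33.7, 53.7 and 72.2 CPM in RANKL+Dex. The groups overlapped widely, yet in each of the 6 batches the RANKL+Dex library was lower than its RANKL partner. Such a fall in all 6 batches was seen for 11.3% of all tested genes. Batch 2 gave the highest value of each group (89.7 and 72.2 CPM), batch 5 the lowest of each (41.9 and 33.7 CPM), and the log2 difference within a batch ran from −0.48 to −0.23. Without the block the log2 fold change was −0.30 ± 0.16 (adjusted p by edgeR 0.245, not passed). With batch as a block it was −0.31 (adjusted p by edgeR 3.9e-05), so the call depends on the pairing that the batch labels give. With the block, 10.6% of all tested genes were higher and 11.1% lower.

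The windows around the start sites of Slc7a11 and Slc1a4 are shown because they hold the letters of an ATF4-C/EBP composite element, beside that of Asns, the asparagine synthetase gene and a textbook target of this element, which rose. The motif searched was TGATGNAAN on both strands, in RefSeq windows of 250 bases before to 50 after each start site (GRCm38.p6). Capitals mark every match. The Slc7a11 window is chr3:50443564-50443863, the Slc1a4 window chr11:20332664-20332963 and the Asns window chr6:7693160-7693459, all read 5′ to 3′ on the minus strand.
Slc7a11: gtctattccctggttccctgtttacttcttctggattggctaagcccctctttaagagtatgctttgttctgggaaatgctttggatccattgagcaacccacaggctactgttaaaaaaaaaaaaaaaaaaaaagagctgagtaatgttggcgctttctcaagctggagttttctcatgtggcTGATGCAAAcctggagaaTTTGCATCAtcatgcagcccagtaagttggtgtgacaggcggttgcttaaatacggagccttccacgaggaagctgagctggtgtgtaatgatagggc
Slc1a4: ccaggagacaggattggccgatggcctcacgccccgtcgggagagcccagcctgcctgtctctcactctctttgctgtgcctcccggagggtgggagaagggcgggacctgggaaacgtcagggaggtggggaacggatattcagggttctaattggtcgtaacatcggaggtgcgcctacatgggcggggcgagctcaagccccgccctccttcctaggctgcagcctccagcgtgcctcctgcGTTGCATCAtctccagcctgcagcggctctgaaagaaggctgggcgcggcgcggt
Asns: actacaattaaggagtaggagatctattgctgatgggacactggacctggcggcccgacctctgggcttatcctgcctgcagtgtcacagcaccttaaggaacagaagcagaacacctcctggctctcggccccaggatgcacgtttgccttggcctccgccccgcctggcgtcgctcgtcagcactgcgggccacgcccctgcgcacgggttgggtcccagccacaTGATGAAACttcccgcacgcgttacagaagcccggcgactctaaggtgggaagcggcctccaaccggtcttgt
Slc7a11 held 2 matches in opposite orientation, whose leftmost bases lie 66 and 48 bases before the start site. Slc1a4 held 1 match across the start site, with its leftmost base 5 bases before it, and Asns 1 match with its leftmost base 23 bases before it. Windows were found for 27 of the 39 genes and for 6 of the 9 ATF4-linked carriers, of which 2 had a match. Slc6a9, the ATF4-linked carrier that rose, had windows but no match. Slc1a5, Slc7a3 and Slc7a5 had no window. Of the 21 other members with a window 1 had a match, Slc7a7. Over all 27025 genes with a window 4.50% held the motif. None of the windows of the 27 genes held the full palindromic glucocorticoid receptor consensus, which was present in windows of 3 of all genes (0.0111%). A match or its absence describes these letters only.

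The other ATF4-linked carriers did not pass. Slc1a5 ranged from 604 to 659 CPM in RANKL and from 595 to 695 CPM in RANKL+Dex, and its log2 fold change was 0.03 ± 0.04 (95% interval −0.05 to 0.11, adjusted p by edgeR 0.677). Slc7a1, the cationic carrier CAT1 for arginine and lysine, ranged from 181 to 224 CPM in RANKL and from 186 to 218 CPM in RANKL+Dex (0.03 ± 0.05, 95% interval −0.08 to 0.14). Slc38a2, the SNAT2 carrier of small neutral amino acids that adapts to amino acid supply, ranged from 204 to 284 CPM in RANKL and from 228 to 283 CPM in RANKL+Dex. Its log2 fold change was 0.09 ± 0.08 (95% interval −0.08 to 0.26), with a higher value in 3 of 6 batches.

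Slc1a4, the ASCT1 exchanger of alanine, serine and cysteine, was at 4.70 ± 0.790 CPM without and 5.29 ± 0.502 CPM with dexamethasone (n = 6; log2 fold change 0.17 ± 0.12, adjusted p by edgeR 0.366). Slc7a3, the cationic carrier CAT3, was scarce, with 6 to 24 counts per library. Its log2 change of 0.61 ± 0.27 was the highest of the ATF4-linked carriers but did not pass (adjusted p by edgeR 0.143). Slc7a3 passed without RANKL replicate 5 (adjusted p by edgeR 0.0450) and without batch 5 (0.0317). RANKL replicate 5 held the highest RANKL value, 1.00 CPM against a group median of 0.520 CPM.

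**Figure D3:**
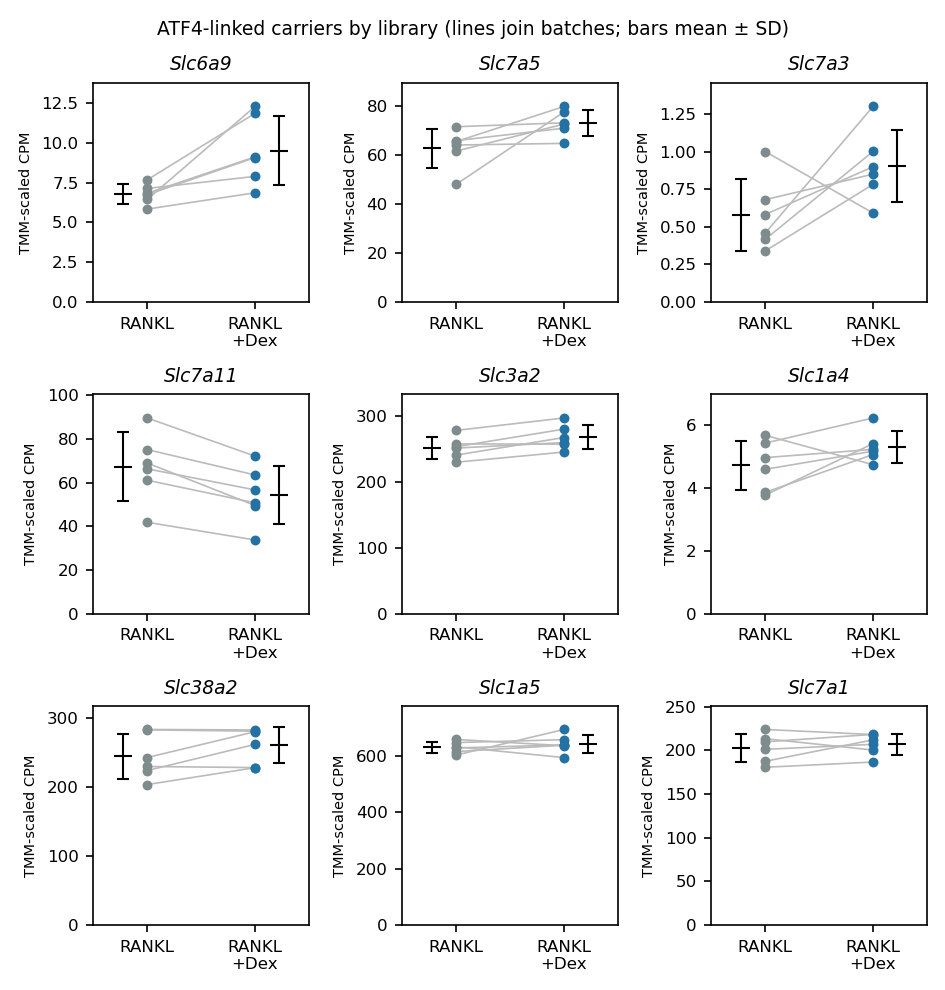
TMM-scaled CPM of the 9 ATF4-linked carriers in every library; grey lines join the libraries of a batch, and the bars beside the points give mean ± SD (n = 6). All 6 lines rise for Slc6a9 and Slc7a5 and all 6 fall for Slc7a11, whose groups overlap (41.9 to 89.7 against 33.7 to 72.2 CPM), while the lines of Slc38a2 go up in 3 of 6 batches.

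Light chains of the Slc7 family decide what a CD98 heterodimer carries. Of the 6 tested, 0 were higher, 1 was lower and 5 did not pass (16.7% called, beside 15.5% of all tested genes). The fit with batch as a block called 1 higher (Slc7a5) and 2 lower (Slc7a8 and Slc7a11), where 21.8% of all tested genes were called. Slc7a8, which encodes LAT2, an exchanger of small and large neutral amino acids, fell (chromosome 14 from 54959666 to 55019403, minus strand, GRCm39). Its lowest, median and highest levels were 76.1, 104 and 127 CPM in RANKL and 55.7, 71.6 and 82.6 CPM in RANKL+Dex. The overlap came from RANKL replicate 5 (76.1 CPM), which lay below the top RANKL+Dex libraries, and 6 of 6 batches were lower with dexamethasone. The log2 fold change was −0.50 ± 0.11 (adjusted p by edgeR 0.00401). Slc7a6, the y+LAT2 light chain for cationic and neutral amino acids, was also lower in 6 of 6 batches but did not pass (−0.16 ± 0.07, adjusted p by edgeR 0.124). For Slc7a7, the y+LAT1 light chain, the value was −0.01 ± 0.09 (adjusted p by edgeR 0.973). It overlaps Oxa1l on the opposite strand, which had more counts (25889 in all against 4288), so shared reads cannot be told apart. Slc7a15 was scarce, with 10 to 40 counts per library, and had a log2 change of 0.35 ± 0.24 (adjusted p by edgeR 0.379). It overlaps 5033421B08Rik on the opposite strand (248 counts in all against 294).

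Per kilobase of exon, Slc7a8 and Slc7a5 were the most abundant light chain mRNAs, and their order differed between the groups. Slc7a8 made up 38.3% ± 3.91 of the summed light chain level in RANKL and 29.6% ± 2.57 in RANKL+Dex (SD, n = 6). Slc7a5 made up 32.4% ± 5.29 in RANKL and 41.2% ± 3.23 in RANKL+Dex. The ratio of Slc7a5 to Slc7a8 had lowest, median and highest values of 0.618, 0.842 and 1.27 in RANKL and of 1.20, 1.28 and 1.78 in RANKL+Dex. RANKL replicate 5, at 1.27, was the RANKL library within the RANKL+Dex range, and within each batch the RANKL+Dex library had the higher ratio. The mean ratio in RANKL+Dex was 1.63 times that in RANKL, and between 1.54 and 1.80 times when a library was left out. The ratio of Slc3a2 to the 6 light chains together ran from 1.28 to 1.43 in RANKL and from 1.51 to 1.69 in RANKL+Dex, with no overlap. These ratios were chosen after the values were seen and are given without a test, and the exon lengths behind them come from a mouse annotation of another build.

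**Figure D4:**
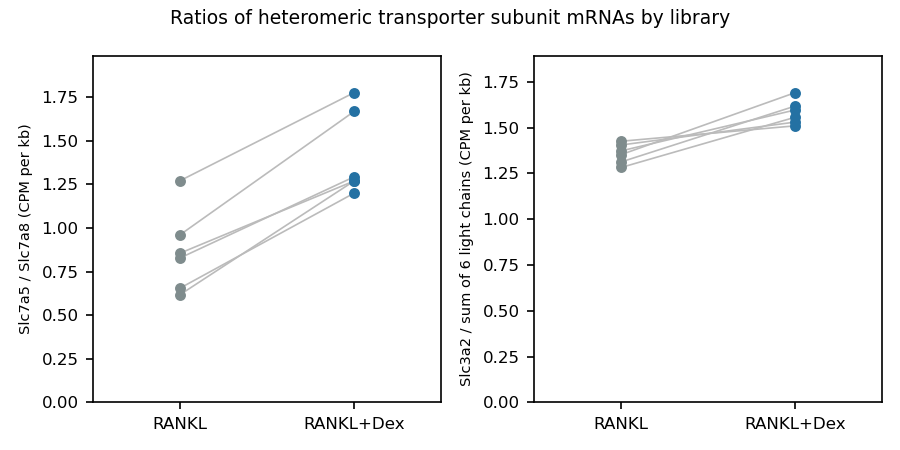
Ratios per library of Slc7a5 to Slc7a8 (left) and of the heavy chain Slc3a2 to the sum of 6 light chains (right), each in TMM-scaled CPM per kb; grey lines join batches. Every line rises from RANKL to RANKL+Dex, and the right-hand groups do not overlap (1.28 to 1.43 against 1.51 to 1.69).

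In the Slc6 family 9 of 10 members were tested, of which 2 rose (Slc6a9, above, and Slc6a19), 3 fell and 4 did not pass (22.2% higher and 33.3% lower, beside 7.98% and 7.55% of all tested genes). Slc6a19, which encodes B0AT1, the neutral amino acid carrier of gut and kidney epithelium, had the largest positive fold change of all members. It ranged from 0.879 to 1.54 CPM in RANKL (median 1.14) and from 1.89 to 3.20 CPM in RANKL+Dex (median 2.50). The groups did not overlap, which was so for 3.84% of all tested genes in this direction and 7.01% in either, and the log2 fold change was 1.07 ± 0.19 (adjusted p by edgeR 8.6e-04). The gene is scarce here, with 18 to 90 counts per library. Slc6a17, a vesicular carrier of neutral amino acids known from neurons, fell. Its lowest, median and highest levels were 57.2, 74.9 and 88.6 CPM in RANKL and 31.9, 46.3 and 69.7 CPM in RANKL+Dex, lower in 6 of 6 batches with overlapping groups (−0.58 ± 0.14, adjusted p by edgeR 0.00993).

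Slc6a6, the abundant taurine carrier, fell by a small margin. Its levels ran from 962 to 1085 CPM in RANKL (median 992) and from 875 to 956 CPM in RANKL+Dex (median 923), with no overlap, which held for 3.17% of tested genes in this direction. The log2 fold change was −0.13 ± 0.04 (adjusted p by edgeR 0.0229). The call ended without RANKL replicate 6 (adjusted p by edgeR 0.0645), without RANKL+Dex replicate 2 (0.05002) or 3 (0.0552), and without batch 2 (0.0582), 3 (0.0808), 4 (0.0626) or 6 (0.0957). Slc6a8, the creatine carrier, was at 919 ± 25.1 CPM without and 944 ± 34.5 CPM with dexamethasone (0.04 ± 0.03, 95% interval −0.03 to 0.11). For the serotonin carrier Slc6a4, the betaine and GABA carrier Slc6a12 and the GABA carrier Slc6a13, log2 fold changes lay between 0.05 and 0.19, with adjusted p by edgeR between 0.525 and 0.751.

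Among proton-coupled carriers Slc36a2 showed the largest fall of the whole set. It encodes PAT2, a carrier of glycine, alanine and proline (chromosome 11, 55049296 to 55075903, minus strand, GRCm39). The lowest, median and highest levels were 1.49, 1.72 and 3.73 CPM in RANKL and 0.118, 0.778 and 1.21 CPM in RANKL+Dex. The groups did not overlap, which held for 3.17% of tested genes in this direction. RANKL replicate 2 (3.73 CPM) stood above the other RANKL libraries. The log2 fold change was −1.54 ± 0.35 (adjusted p by edgeR 0.00630), from 2 to 66 counts per library. Without any 1 library or batch it lay between −1.82 and −1.30. Beside it on chromosome 11, Slc36a1, the lysosomal carrier PAT1, had a log2 change of −0.07 ± 0.06 (adjusted p by edgeR 0.539), and Slc36a3 lay below the filter. Slc36a4, a related carrier, was at 119 ± 3.67 CPM without and 119 ± 4.86 CPM with dexamethasone (0.01 ± 0.04, 95% interval −0.07 to 0.09).

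None of the 6 tested Slc38 genes passed, by the edgeR test or in any of the other settings, and their log2 fold changes lay between −0.08 and 0.09. They include Slc38a9, the lysosomal arginine sensor of mTORC1 (28.6 ± 2.25 CPM in RANKL, 29.8 ± 1.32 CPM in RANKL+Dex, n = 6), and Slc38a7, a lysosomal glutamine exporter (0.07 ± 0.05). The value for the glutamine carrier Slc38a1 was 0.01 ± 0.05 (95% interval −0.09 to 0.12). In the Slc43 family, Slc43a3, a nucleobase carrier, fell (mean 38.5 ± 4.66 CPM without and 31.0 ± 2.75 CPM with dexamethasone, n = 6) and was lower in 6 of 6 batches. Its ranges, 33.3 to 47.2 CPM and 28.7 to 36.1 CPM, overlapped at their edges, and the log2 fold change was −0.32 ± 0.07 (adjusted p by edgeR 0.00853). Slc43a2, the LAT4 uniporter of branched-chain amino acids, varied more within the groups (239 to 316 CPM in RANKL, 230.0 to 351 CPM in RANKL+Dex) than between them (0.05 ± 0.09, adjusted p by edgeR 0.751).

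Of the cationic carriers outside the ATF4-linked group, Slc7a14, a lysosomal relative of these carriers, rose (mean 0.761 ± 0.230 CPM without and 1.30 ± 0.235 CPM with dexamethasone, n = 6; log2 fold change 0.80 ± 0.22, adjusted p by edgeR 0.0199). It was higher in 6 of 6 batches, but had 12 to 43 counts per library. RANKL replicates ranged from 0.582 to 1.20 CPM and RANKL+Dex replicates from 0.899 to 1.53 CPM, so the groups overlapped. The call ended without batch 2 (adjusted p by edgeR 0.0845), 3 (0.0642) or 4 (0.0907). For Slc7a4 and the arginine carrier Slc7a2 the log2 fold changes were 0.22 ± 0.15 and −0.20 ± 0.33 (adjusted p by edgeR 0.342 and 0.744).

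**Figure D5:**
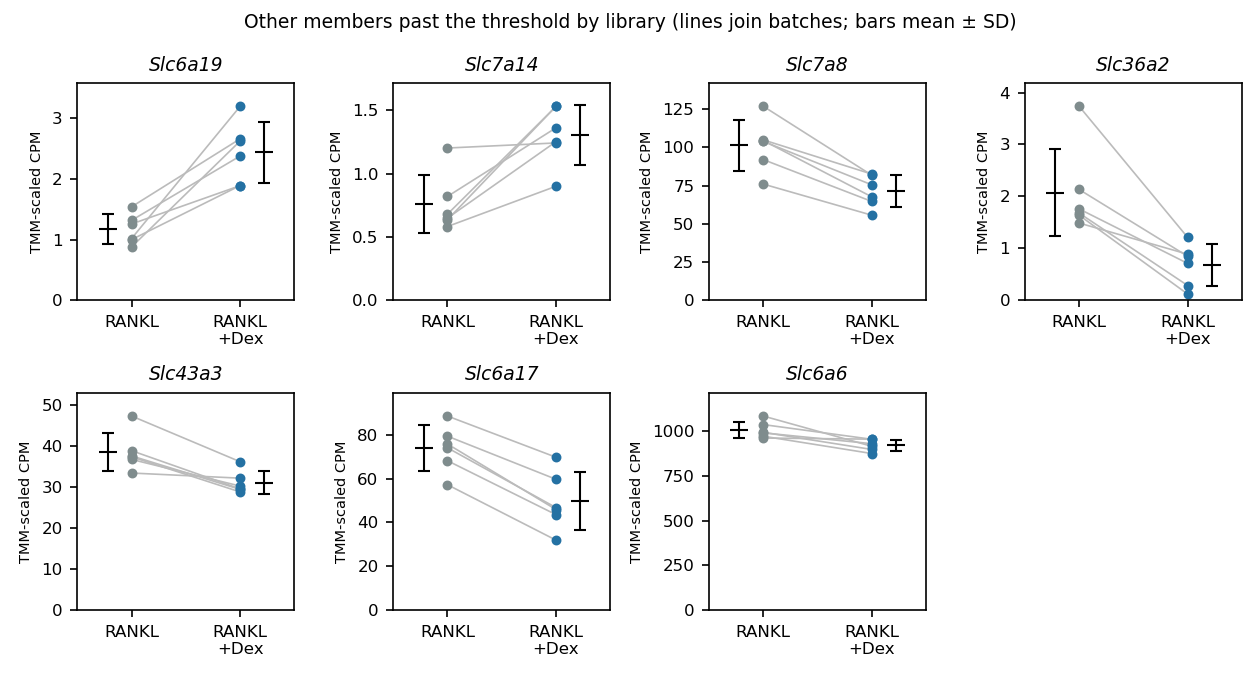
TMM-scaled CPM in every library for 7 members outside the ATF4-linked group that passed the threshold; grey lines join batches and bars give mean ± SD (n = 6). Slc6a19 (0.879 to 1.54 against 1.89 to 3.20 CPM), Slc36a2 and Slc6a6 show no overlap between the groups, and every line of Slc7a8 and Slc6a17 falls.

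The 5 members below the filter were Slc1a2, Slc1a7, Slc3a1, Slc6a7 and Slc36a3, with 31 to 97 counts over all 12 libraries, and at this depth no difference could be shown for them. Slc3a1, with 32 counts, overlaps Prepl, with 8571. Just above the minimum of 30 counts lay Slc1a7 (31) and Slc3a1 (32), and just under it the glutamate carrier Slc1a1 (21) and the LAT3 uniporter Slc43a1 (15).

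Genes that act beside the carriers moved in other proportions. Of 26 tested genes of the ATF4 axis outside the transporters 11 were higher and 0 lower, a share of 42.3% beside 7.98% of all tested genes, with a median log2 change of 0.15. With batch as a block 14 were higher, beside 10.6% of all tested genes. Asns had lowest, median and highest levels of 67.5, 74.3 and 87.4 CPM in RANKL and of 98.5, 111 and 122 CPM in RANKL+Dex (0.54 ± 0.06, adjusted p by edgeR 2.1e-05). Its groups did not overlap, which held for 3.84% of tested genes in this direction. Eif4ebp1, a translation repressor gene (0.40 ± 0.05), Psph, the last enzyme of serine synthesis (0.55 ± 0.07), and Mthfd2, a mitochondrial folate enzyme (0.35 ± 0.06), rose as well. Atf4 mRNA itself was at 207 ± 7.18 CPM without and 215 ± 8.01 CPM with dexamethasone (0.05 ± 0.04, adjusted p by edgeR 0.331). Asns, Eif4ebp1, Psph and Mthfd2 were the 4 genes of smallest p in this list. Of the 26 genes 15 did not pass, and 4 had a negative log2 change. The difference between the carriers and the rest of the axis was not tested. An earlier result of these data had already shown stress response genes to be higher, which here held for 11 of the 26.

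Of 30 tested genes that signal amino acid supply to mTORC1, 1 was higher and 3 were lower (13.3% called, beside 15.5% of all tested genes). Rragd, which encodes a Rag GTPase, rose (mean 14.7 ± 1.74 CPM without and 25.2 ± 3.43 CPM with dexamethasone, n = 6; 0.78 ± 0.10, adjusted p by edgeR 3.1e-05), and Tsc2, a brake on mTORC1, fell (−0.19 ± 0.04, adjusted p by edgeR 0.00478). The calls of Rptor (−0.11 ± 0.03) and Mtor (−0.14 ± 0.05), which encode the scaffold and the kinase of mTORC1, ended in 16 and 13 of 24 alternative settings. With batch as a block 2 genes of this list were higher and 4 lower, where 21.8% of all tested genes were called. Of 16 tested amino acid or peptide carriers of other families 0 were higher and 3 lower (18.8% called, beside 15.5% of all tested genes), and 1 and 4 with batch as a block (21.8% of all tested genes called). Slc15a3, a lysosomal carrier of histidine and peptides, ranged from 26.5 to 66.4 CPM in RANKL and from 9.11 to 25.4 CPM in RANKL+Dex (−1.43 ± 0.21, adjusted p by edgeR 2.0e-04). Its groups did not overlap, which held for 3.17% of tested genes in this direction. Slc16a10, the aromatic amino acid carrier TAT1, fell (mean 107 ± 2.19 CPM without and 91.1 ± 8.15 CPM with dexamethasone, n = 6; −0.23 ± 0.05). Mfsd12, a lysosomal cysteine carrier, had a value of −0.16 ± 0.05 and lost its call in 13 of 24 settings, and Slc25a39, the mitochondrial glutathione carrier, did not pass (0.10 ± 0.04).

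Among 14 tested genes of cystine and glutathione use, the fate of what Slc7a11 imports, 1 was higher and 2 were lower (21.4% called, beside 15.5% of all tested genes), and 2 and 3 with batch as a block (21.8% of all tested genes called). Glutathione reductase (Gsr) rose (0.29 ± 0.04, adjusted p by edgeR 1.0e-04). The quinone reductase gene Nqo1, a target of NRF2, which also drives Slc7a11, fell (mean 25.7 ± 5.79 CPM without and 13.7 ± 2.82 CPM with dexamethasone, n = 6; −0.89 ± 0.15, adjusted p by edgeR 5.0e-04). Thioredoxin reductase (Txnrd1) fell by 0.12 ± 0.03 on the log2 scale (adjusted p by edgeR 0.0122), a call that ended without batch 6 (0.0585). Gclc, which catalyses the first step of glutathione synthesis, had a log2 change of −0.18 ± 0.06 (adjusted p by edgeR 0.0502) and passed with batch as a block (0.00350) and in 8 of the other settings. Of 18 tested genes of the list for glutamine and serine use, which also holds aspartate, arginine and branched-chain enzymes, 5 were higher and 2 lower (38.9% called, beside 15.5% of all tested genes). The aspartate aminotransferase genes Got1 (0.32 ± 0.04) and Got2 (0.29 ± 0.05) and the branched-chain aminotransferase gene Bcat1 (1.07 ± 0.17) rose, and the arginine synthesis gene Ass1 fell (mean 6.78 ± 1.11 CPM without and 2.39 ± 1.03 CPM with dexamethasone, n = 6; −1.52 ± 0.20, adjusted p by edgeR 5.2e-05).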

How the data were processed

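Counts per gene in 12 RNA-seq libraries were analysed. The deposited values are raw read counts per Ensembl gene, whole numbers made by the authors, in 1 column per library matched by library name. The submitters' processing notes list HISAT2 2.1.0, StringTie 1.3.3b, FastQC 0.11.5, DESeq 1.28.0 and GRCm39 with no roles. Which program counted the reads, and on which annotation, is not stated.

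The filter filterByExpr (minimum count 10, minimum total 15) left 13775 genes. The groups were compared with edgeR 4.0.16 (TMM factors, two-sided quasi-likelihood test, under R 4.3.3). Adjustment was by Benjamini-Hochberg over all tested genes, with a threshold of 0.05. The SE comes from the F statistic and the 95% interval from that SE and the total degrees of freedom. Levels are TMM-scaled CPM, and levels per kilobase use the union of exons in GENCODE M21 (GRCm38). The common biological coefficient of variation was 8.67%.

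The members and lists were chosen with earlier results of these data known. Named genes are all ATF4-linked carriers, other members past the threshold, the 3 most abundant members per kb, and up to 4 genes of smallest p per list (5 lists, counted whole); other members named were chosen after their values were seen, as was Atf4. The values of 1 member are not reported here. Promoter windows are from RefSeq (GRCm38.p6), whose coordinates are not comparable with GRCm39.

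Batch numbers in the labels pair the libraries. As a check, deviations from group means correlated between same-numbered libraries at 0.19, 0.27, 0.05, 0.04, 0.36 and 0.08, 0.165 on average, and between other pairs at −0.0329. The fit without the block is the one reported, and the blocked value stands where it changed a call. With 1 library of each group in a batch, differences within batches are values without a test. The series design speaks of biological replicates but does not say whether each came from its own mouse. The p-values therefore reflect variation among cultures. No 2 libraries of a group agreed within sampling noise (chi-square per gene at least 3.22). Alternatives were DESeq2 1.42.0, other scalings and filters, the block, and leaving out each library or batch.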

Additional observations from a re-analysis of the deposited data

Results flagged for a closer look

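Of 78 groups of 6 libraries checked (39 genes in 2 groups), 4 held a library that stood far from the others, where chance flags about 1 in 20. The count of flags thus lay near that chance rate. All 4 were RANKL libraries, and with so few flags nothing is read from this. Slc36a1 was lowest in RANKL replicate 5, at 40.3 CPM with the next library at 50.5 CPM. Slc36a2 was highest in RANKL replicate 2, at 3.73 CPM with the next at 2.13 CPM. The scarce genes Slc6a7 and Slc1a7, which were not tested, were highest in RANKL replicate 5 (0.637 CPM, next 0.170 CPM) and RANKL replicate 1 (0.349 CPM, next 0.114 CPM).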

How the results depend on the processing

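The number of ATF4-linked carriers called higher was 1 in the reported fit, 2 in DESeq2, 2 with the replicate block and 0 when a log2 fold change of at least 0.5 was also asked for. Leaving out a library or a batch gave 0 to 3 of these, 2 to 5 members higher in all, 4 to 6 lower and 1 to 2 other members higher. Over all genes these fits called from 1339 of 13782 (without batch 4) to 2493 of 13990 (without RANKL+Dex replicate 1) in either direction. Without RANKL replicate 5, or without batch 5, 5 members were higher, with Slc7a3 and Slc7a5 added. The counts of other members higher fell to 1 without batch 2, 3 or 4, when Slc7a14 was lost. Scaling by RLE factors or by library totals, and both other filters, left the counts of higher and lower members as reported. Over all settings the median log2 fold change lay between 0.08 and 0.14 for ATF4-linked carriers and between 0.00 and 0.04 for the others. The calls of Slc6a19, Slc7a8, Slc36a2, Slc43a3 and Slc6a17 held in all 24 alternative settings, and no called gene changed direction in any. With batch as a block 4 members were higher and 7 lower, beside 10.6% and 11.1% of all tested genes. Slc7a5 and Slc7a11 were added, and no other member's call changed. Depth limits the scarce genes, such as Slc7a3 (6 to 24 counts per library) and Slc7a14 (12 to 43).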
